A study of Homo sapiens with 8 samples.

Results

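The mitotic kinases CDK1, AURKA, AURKB, PLK1 and BUB1, the cyclins CCNA2, CCNB1 and CCNB2, the anaphase activator CDC20 and the transcription factor FOXM1 were followed in human IMR90 cells as a set of 10 genes, taken by symbol from the 28265 genes of the count tables. IMR90 is a fibroblast line from fetal lung. All 8 libraries come from this line at low passage, with 2 libraries in each of 4 conditions. The control, labelled young, carries no treatment in its label, and a vehicle is not named there. The ICM libraries were made after 3 or 6 days with inflachromene (ICM), a small molecule that binds the chromatin proteins HMGB1 and HMGB2. The MetaICM libraries carry only that name, and neither the labels nor the methods say what the treatment was or how long it lasted. The libraries are called factory RNA-seq, a preparation of nascent RNA, while their labels describe poly(A) selection. The deposited values are pairs of reads counted on exons, which do not separate nascent from mature RNA.

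Entry into mitosis is driven by the kinase CDK1 bound to a cyclin: cyclin A2 also acts in S phase, and cyclins B1 and B2 carry the step into mitosis itself. Aurora A and PLK1 mature the centrosomes and help to switch CDK1 on, Aurora B corrects the attachment of chromosomes to the spindle, and BUB1 holds the spindle checkpoint until CDC20 lets the anaphase-promoting complex destroy the cyclins. The genes of all these proteins are transcribed late in the cell cycle, under FOXM1 with the MuvB complex, and are repressed by the DREAM complex when cells leave the cycle.

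The libraries held from 12095123 to 23166405 counted pairs, with a median of 18642269, and levels are given as counts per 1000000 pairs of a library's TMM-scaled total (CPM). Such levels are relative to the library, so a change common to all genes would not show in them. Of 8 fibroblast markers, all had counts in every condition, and their summed level was 54094 to 59992 CPM in control, 26519 to 27328 after 3 days of ICM, 20630 to 20792 after 6 days and 34162 to 37212 in MetaICM. The 6 immune markers summed to 4.55 to 6.24 CPM in control and 13.4 to 21.4 in the other conditions, with CD3E at 0 in all 8 libraries. The rise lay in CD68, with means of 4.79 CPM in control, 18.2 at 3 days, 18.1 at 6 days and 12.9 in MetaICM. PTPRC, the next highest, had a mean of at most 1.12 CPM in any condition. The 6 epithelial markers summed to at most 13.9 CPM and the 5 endothelial markers to at most 234 CPM, with the alveolar marker SFTPC at 0 in control and the endothelial marker CDH5 at 0 after 6 days of ICM and in MetaICM. The part of these shifts in the results for the mitotic genes was not tested. In a bulk library, fewer cells in the late cell cycle and less of a transcript in each cell cannot be told apart.

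All 10 genes fell to 3.47% to 21.7% of their control mean after ICM and stood at 54.2% to 84.8% of it in MetaICM. Together they took 608 and 566 CPM in the control libraries, 54.8 and 54.9 after 3 days of ICM, 56.9 and 57.2 after 6 days, and 390 and 426 in MetaICM. The sum after ICM was thus 9.34% of the control mean at 3 days and 9.72% at 6 days, against 69.5% in MetaICM. The 4 ICM libraries were below the other 4 for every gene. The share of all genes with this separation is not given here. The fewest pairs counted for any of the 10 genes in any library were 191 in control, 19 at 3 days, 19 at 6 days and 206 in MetaICM, so the levels after ICM rest on less depth than the others.

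**Figure D1:**
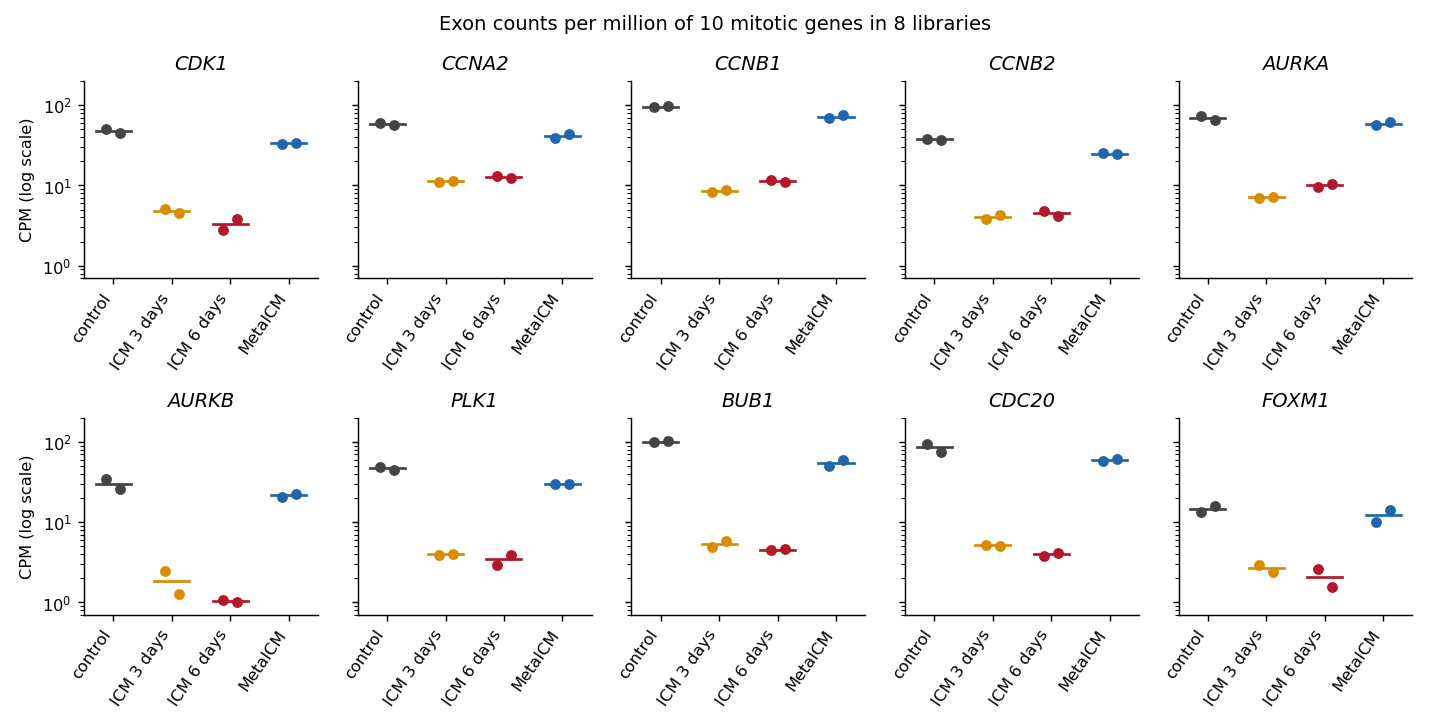
Exon counts (CPM) of the 10 mitotic genes, on a log axis, in control, after 3 and 6 days of ICM and in MetaICM; each point is a library and each line the mean of 2. In every panel the 4 ICM points lie below the others, down to 1.01 CPM for AURKB, and the MetaICM points reach into the control range for FOXM1 alone.

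The promoters show what these genes share in sequence. Promoter sequence played no part in choosing the genes, but some motifs are those of the factors named above for them. Matches are thus no independent test. RefSeq promoters, from 250 bases before to 50 bases after the start, were at hand for 8 of the 10 genes, the others being AURKA and FOXM1. On both strands, 5 motifs were searched: CCAAT, bound by NF-Y; the cell cycle homology region (CHR), bound by MuvB, as TTTGAA or TTCGAA; the letters GGCGG, as found beside CHR elements; E2F sites as TTTCGCGC, TTTGGCGC, TTTCCCGC or TTTGCCGC; and the forkhead core TAAACA. The CHR letters TTCGAA read the same on both strands, and GGCGG on the opposite strand can overlap an E2F match. Other forms of the CHR were not searched, so a promoter without these letters may still hold one. CCAAT stood in 8 of 8 promoters, against 35.7% of all 27305 RefSeq promoters and 36.9% of the 10645 of genes with at least 10 counts in every library. CHR letters stood in 5 of 8 (CDK1, CCNB2, PLK1, BUB1 and CDC20), against 16.6% of all promoters and 11.8% of the counted genes. GGCGG was held by 8 of 8, but also by 58.6% of all promoters and 84.6% of the counted genes. An E2F match was found in CDK1 only, with 3.33% over all promoters and 5.30% over counted genes, and a forkhead match in CDK1 only, with 12.4% and 7.08%. These matches are descriptions of the letters, and binding was not measured here.

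The 120 bases before the start are printed for the 3 genes in which CCAAT and CHR letters both fall in this stretch. They are also printed for CCNB1, BUB1 and CCNA2, which hold CCAAT without TTTGAA or TTCGAA in it. They are RefSeq sequences of build GRCh38.p14, read 5′ to 3′ on the strand of the gene, and capitals mark CCAAT and CHR matches on either strand (ATTGG is CCAAT read on the other strand).
CCNB2 promoter, chr15:59105026-59105145, plus strand: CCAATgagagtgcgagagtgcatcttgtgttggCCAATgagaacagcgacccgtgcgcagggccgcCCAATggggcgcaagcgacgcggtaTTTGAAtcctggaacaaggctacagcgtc
PLK1 promoter, chr16:23678769-23678888, plus strand: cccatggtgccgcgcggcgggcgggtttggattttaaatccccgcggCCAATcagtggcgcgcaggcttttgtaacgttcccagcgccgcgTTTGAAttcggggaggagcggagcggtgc
CDC20 promoter, chr1:43358861-43358980, plus strand: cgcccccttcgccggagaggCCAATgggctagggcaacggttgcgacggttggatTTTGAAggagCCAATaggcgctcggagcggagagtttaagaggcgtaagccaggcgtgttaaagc
CCNB1 promoter, chr5:69167030-69167149, plus strand: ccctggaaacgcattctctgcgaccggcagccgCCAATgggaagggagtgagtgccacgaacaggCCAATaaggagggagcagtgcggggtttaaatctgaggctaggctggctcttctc
BUB1 promoter, chr2:110678064-110678183, minus strand: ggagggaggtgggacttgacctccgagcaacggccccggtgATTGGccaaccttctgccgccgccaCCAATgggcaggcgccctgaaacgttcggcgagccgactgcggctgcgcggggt
CCNA2 promoter, chr4:121823884-121824003, minus strand: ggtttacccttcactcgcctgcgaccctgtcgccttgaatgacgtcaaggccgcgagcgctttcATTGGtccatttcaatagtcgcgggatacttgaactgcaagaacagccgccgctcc
CCNB2 and PLK1 both hold TTTGAA with its first base 29 bases before the start. Counted back from the start, the CCAAT boxes of CCNB2 begin at -120, -87 and -54, which is 33 bases from each to the next, and those of CCNB1 begin at -87 and -55, 32 bases apart. In CDC20 the CHR letters begin at -65, and a CCAAT begins 10 bases further on.

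**Figure D2:**
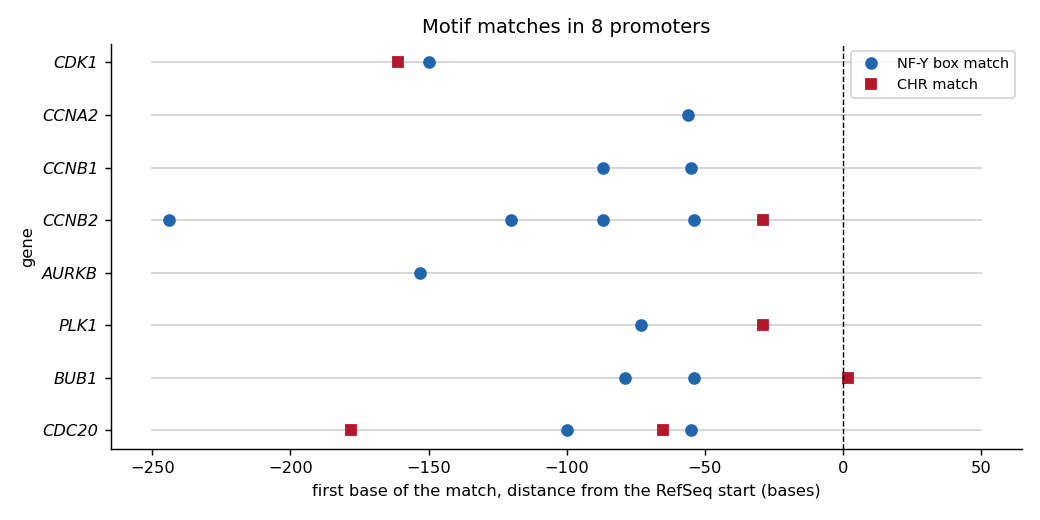
Positions of NF-Y box (CCAAT) and CHR matches, as the distance in bases of their first base from the RefSeq start, in the promoters of 8 mitotic genes, drawn from 250 bases before to 50 after the start (dashed line). Every gene has at least 1 NF-Y box and 5 have CHR letters, which in BUB1 begin 2 bases after the start.

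The cyclins and their kinase were measured first in the order of action. CCNA2 encodes cyclin A2 (chr4:122737599-122745038, minus strand, hg19, the build of the counts). It stood at 60.2 and 57.0 CPM in control, 11.1 and 11.5 after 3 days of ICM, 13.2 and 12.3 after 6 days and 39.2 and 43.8 in MetaICM. It kept the largest share of its control level of the 10 genes after ICM, 19.3% and 21.7% at the 2 times. FOXM1 was close to it at 3 days, at 18.2%. CCNB1 encodes cyclin B1 (chr5:68462837-68474070, plus strand). Its libraries read 96.3 and 96.4 CPM in control, 8.23 and 8.90 at 3 days, 11.7 and 11.1 at 6 days and 68.3 and 74.5 in MetaICM. The 4 groups did not overlap, and both 6-day values were above both 3-day values. CCNB2 encodes cyclin B2 (chr15:59397345-59417244, plus strand), with 38.2 and 36.6 CPM in control, 3.82 and 4.31 at 3 days, 4.78 and 4.20 at 6 days and 25.2 and 24.6 in MetaICM. Here the 2 ICM times overlapped. Per kilobase of exon, CCNB1 was between 1.42 and 2.08 times CCNB2 in each of the 8 libraries.

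CDK1, the kinase that the cyclins activate (chr10:62538089-62554611, plus strand), stood at 50.2 and 45.6 CPM in control, 5.15 and 4.52 at 3 days, 2.79 and 3.83 at 6 days and 32.5 and 34.2 in MetaICM. All 4 groups were apart, in the falling order control, MetaICM, 3 days, 6 days. Its level relative to CCNA2, each per kilobase, was 0.691 and 0.662 in control, 0.383 and 0.324 at 3 days, 0.176 and 0.257 at 6 days and 0.687 and 0.647 in MetaICM. The kinase was thus low beside its cyclin A partner in the 4 ICM libraries, while MetaICM was near the control ratio. Relative to CCNB1 it was 0.341 and 0.309 in control and 0.409 and 0.331 at 3 days. At 6 days this ratio was 0.156 and 0.226, and in MetaICM 0.310 and 0.300. Beside cyclin B1 the kinase was thus clearly low at 6 days only.

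Among the other mitotic kinases, AURKA encodes Aurora A (chr20:54944445-54967393, minus strand). It stood at 72.4 and 65.9 CPM in control, 7.08 and 7.15 at 3 days, 9.56 and 10.6 at 6 days and 56.3 and 60.9 in MetaICM. Both 6-day libraries exceeded both 3-day libraries, and MetaICM was at 84.8% of the control mean. This was the highest share of the 10 genes, close to the 83.6% of FOXM1. AURKB encodes Aurora B, the kinase of the chromosomal passenger complex (chr17:8108049-8113893, minus strand). It stood at 34.2 and 25.7 CPM in control, 2.44 and 1.28 at 3 days, 1.07 and 1.01 at 6 days and 20.6 and 22.7 in MetaICM. It kept the smallest share of its control level at 6 days, 3.47%, on 20 and 19 counted pairs. The 3-day libraries, with 53 and 19 pairs, were further from each other than those of any other gene at that time. Per kilobase, the ratio of AURKA to AURKB was 1.20 and 1.45 in control, 1.65 and 3.16 at 3 days, 5.05 and 5.94 at 6 days and 1.55 and 1.52 in MetaICM. At 6 days the 95% confidence intervals of their log2 fold changes (log2FC) against control, -3.09 to -2.48 for AURKA and -5.36 to -4.33 for AURKB, did not overlap. At 3 days they did (-3.62 to -2.94 for AURKA and -4.54 to -3.38 for AURKB).

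PLK1, polo-like kinase 1, which acts on centrosomes, on CDK1 activation and in cytokinesis (chr16:23690210-23701688, plus strand), stood at 48.8 and 45.0 CPM in control, 3.95 and 3.98 at 3 days, 2.95 and 3.93 at 6 days and 30.0 and 30.3 in MetaICM. The ICM times lay next to each other and far below the rest. BUB1, the checkpoint kinase of the kinetochore (chr2:111395105-111435684, minus strand), read 98.8 and 102.7 CPM in control, 4.87 and 5.80 at 3 days, 4.51 and 4.62 at 6 days and 49.6 and 59.6 in MetaICM. It had the lowest share of control in MetaICM, 54.2%, and at 3 days, 5.29%. CDC20, which BUB1 and the other checkpoint proteins hold in check (chr1:43824652-43828873, plus strand), stood at 95.3 and 75.5 CPM in control, 5.24 and 5.06 at 3 days, 3.81 and 4.14 at 6 days and 57.8 and 61.2 in MetaICM. Per kilobase it was the highest of the 10 genes in control, at 51.8 CPM, and at rank 3 after 3 days of ICM and rank 5 after 6 days.

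FOXM1, the forkhead transcription factor of late cell cycle genes (chr12:2966846-2986340, minus strand), had the lowest mean level per kilobase in all 4 conditions. At 6 days its libraries overlapped those of AURKB, so the order of these genes is not settled there. The length used for FOXM1 includes 450 exon bases shared with another gene, on which pairs were not counted, so its level per kilobase reads low. FOXM1 stood at 13.4 and 15.8 CPM in control, 2.90 and 2.43 at 3 days, 2.58 and 1.54 at 6 days and 10.2 and 14.2 in MetaICM. Its MetaICM libraries overlapped the control, and its ICM times overlapped each other. Ranked per kilobase among 16591 genes, FOXM1 lay at percentiles 43.8 to 47.8 in control and 12.7 to 19.5 after ICM, whereas CDC20 lay at 95.2 to 95.9 in control and 36.3 to 42.6 after ICM.

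The order of the 10 genes by level per kilobase changed with ICM. In control it ran from CDC20 at 51.8 and CCNB1 at 44.5 CPM per kilobase over AURKA, BUB1, CCNB2, PLK1, CCNA2, AURKB and CDK1 to FOXM1 at 3.99. AURKA could not be ordered against BUB1 or CCNB2 there, as their libraries overlapped, nor could PLK1, CCNA2 and AURKB among themselves. After 3 days CCNA2 at 4.12 and CCNB1 at 3.95 led with overlapping libraries. After 6 days CCNB1 at 5.25, CCNA2 at 4.64 and AURKA at 3.89 led, with libraries that did not overlap. The length used for CCNA2 includes 254 exon bases shared with another gene, on which pairs were not counted. Its level per kilobase therefore reads low, and its order against CCNB1 is not settled at either time. In MetaICM the first 3 were CDC20 at 36.1, CCNB1 at 33.0 and AURKA at 22.6, as in control.

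The first comparison asks what 3 days of ICM did, by edgeR's quasi-likelihood test over all genes with Benjamini-Hochberg adjustment. A gene was called at an adjusted p under 0.05 and an absolute log2FC over 0.6. At 3 days 10 of 10 genes were called lower, against 13.2% of the 15692 genes tested, with a median log2FC of -3.40 where the median of all genes was 0.01. BUB1 fell furthest (log2FC -4.25, SE 0.16, 19.1-fold) and CDC20 next (-4.05, SE 0.18), with overlapping 95% intervals. CCNA2 (-2.38, SE 0.15, 5.19-fold) and FOXM1 (-2.44, SE 0.23) fell least. CDK1 (-3.30, SE 0.17), CCNB1 (-3.50, SE 0.15), CCNB2 (-3.21, SE 0.18), AURKA (-3.28, SE 0.16), PLK1 (-3.57, SE 0.17) and AURKB (-3.96, SE 0.27) lay between. The adjusted p-values of the quasi-likelihood test lay between 1.35e-08 and 8.44e-06. The falls were not equal: of the 45 pairs among the 10 genes, 20 had 95% intervals apart. With 1 library left out, the log2FC of AURKB ran from -4.56 to -3.60.

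At 6 days 10 of 10 genes were again called lower, against 17.2% of 15950 genes tested, with a median log2FC of -3.43 (all genes -0.001). AURKB had fallen furthest (-4.85, SE 0.23, 28.8-fold), ahead of BUB1 (-4.47, SE 0.14) and CDC20 (-4.43, SE 0.17). CDK1 (-3.86, SE 0.18), PLK1 (-3.77, SE 0.18), CCNB1 (-3.09, SE 0.13), CCNB2 (-3.06, SE 0.16) and AURKA (-2.78, SE 0.14) followed. CCNA2 was again at the other end (-2.21, SE 0.13), with FOXM1 at -2.82 (SE 0.25). The adjusted p-values of edgeR's quasi-likelihood test ran from 2.85e-08 to 1.15e-05, and 28 of the 45 pairs of genes had intervals apart. The 3-day and 6-day comparisons share the control libraries and are given side by side.

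**Figure D3:**
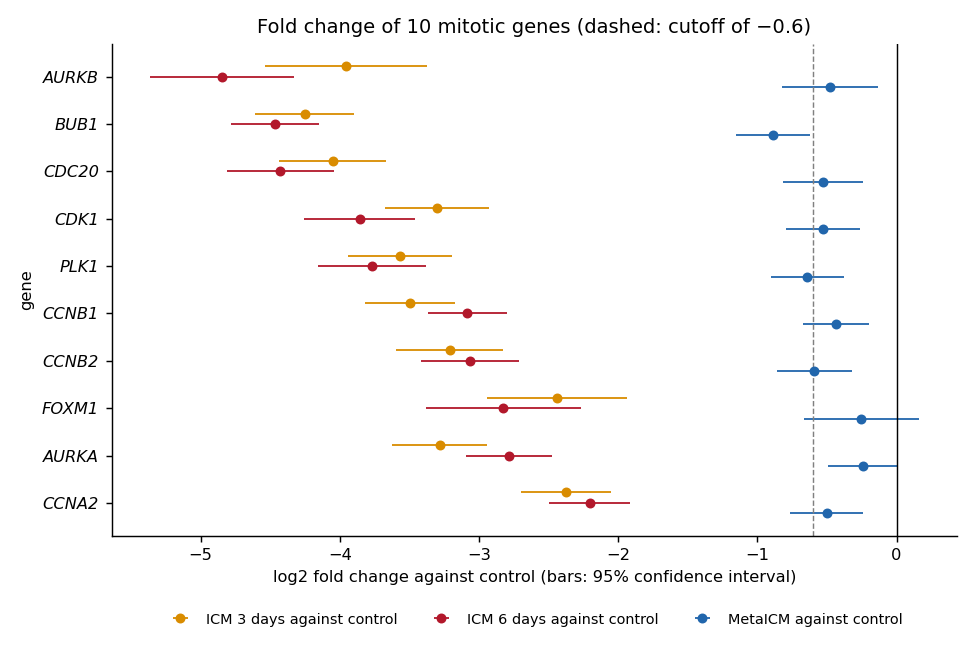
The log2 fold change of each of the 10 mitotic genes against control after 3 and 6 days of ICM and in MetaICM, with bars for the 95% confidence interval and a dashed line at the cutoff of -0.6. The ICM values run from -4.85 to -2.21 and the MetaICM values from -0.89 to -0.24.

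Between 6 and 3 days of ICM little of this moved further. By edgeR's quasi-likelihood test 0 of 10 genes were called lower, against 4.54% of 15845 genes, and 0 higher, against 3.53%. DESeq2 called 0 as well. AURKA was 0.50 higher at 6 days (SE 0.17, 95% interval 0.14 to 0.85, adjusted p 0.0450), under the fold cutoff. CCNB1 had a log2FC of 0.41 (SE 0.16, interval 0.08 to 0.74), CDK1 of -0.56 (SE 0.23, interval -1.05 to -0.07) and AURKB of -0.88 (SE 0.38, interval -1.67 to -0.09), each with an adjusted p over the threshold (0.0770, 0.105 and 0.110). The 95% intervals of the other 6 genes lay between -1.02 and 0.61, which leaves room for changes of either sign. Without the second 3-day library, the log2FC was -0.65 for CDK1 and -1.23 for AURKB. Leaving out other libraries moved these genes the other way, AURKB to -0.29 without the first 3-day library and CDK1 to -0.33 without the first 6-day library.

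MetaICM against control gave small differences of 1 sign. All 10 genes were lower by sign, but by edgeR's quasi-likelihood test 2 of 10 were called lower, against 8.99% of 15904 genes. These were BUB1 (log2FC -0.89, SE 0.12, adjusted p 0.00105) and PLK1 (-0.64, SE 0.12, adjusted p 0.00424). At an adjusted p under 0.05 with no fold cutoff 8 of 10 passed, against 14.0% of genes, the other 6 being CCNB2 (-0.59), CDK1 (-0.53), CDC20 (-0.53), CCNA2 (-0.50), AURKB (-0.48) and CCNB1 (-0.43). AURKA (-0.24, SE 0.11, 95% interval -0.49 to 0.01, adjusted p 0.138) and FOXM1 (-0.25, SE 0.19, interval -0.67 to 0.16, adjusted p 0.338) did not pass. The median was -0.51, and 1 of the 45 pairs of genes had intervals apart. The call of PLK1 was lost without the first control library (-0.58) or without the first (-0.61) or second (-0.63) MetaICM library. Without the second control library the log2FC was -0.68 for CDC20, -0.66 for AURKB and -0.62 for CCNB2. Without the first control library it was -0.34, -0.25 and -0.55 for these genes. Without either MetaICM library, most of the 8 genes did not pass the adjusted p threshold.

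MetaICM stood far above both ICM times. All 10 genes were called higher than at 6 days, against 15.7% of 16036 genes, and higher than at 3 days, against 13.1% of 16209 genes. Against 6 days the log2FC ran from 1.70 (SE 0.10, CCNA2) over 2.57 (FOXM1) and 3.33 (CDK1) to 4.37 (SE 0.18, AURKB), with a median of 2.89, and 32 of the 45 pairs had intervals apart. Against 3 days it ran from 1.88 (SE 0.11, CCNA2) to 3.53 (SE 0.12, CDC20), with a median of 2.99 and 19 pairs apart. The adjusted p-values of edgeR's quasi-likelihood test were at most 3.12e-09 and 1.49e-06.

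Genes with shared exons or close opposite starts were found beside CCNA2, AURKA, PLK1 and FOXM1. Those tested moved less than the member they lie beside. CSTF1, an mRNA cleavage factor that starts 34 bases from AURKA on the opposite strand, was not called against control in any condition (log2FC -0.10, -0.11 and 0.20 at 3 days, 6 days and in MetaICM). ITFG2 shares 450 exon bases with FOXM1 on the opposite strand and was not called either (-0.09, 0.02 and -0.21). EXOSC9, an exosome subunit that shares 254 exon bases with CCNA2 on the opposite strand, fell at 3 and 6 days (log2FC -0.65 and -0.62, adjusted p 0.00889 and 0.00685 by edgeR's quasi-likelihood test) and was not called in MetaICM (-0.16). RHNO1, a DNA damage response gene that starts 909 bases from FOXM1, also fell at both (-0.94 and -0.65, adjusted p 0.0125 and 0.0306) and was not called in MetaICM (0.16). ERN2, with 58 exon bases shared with PLK1, had 2 to 10 counts and was not tested. Pairs were counted without strand and those on more than 1 gene were left out, so pairs on the shared bases of CCNA2, FOXM1 and PLK1 were counted for neither gene.

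The wider pathway was taken as 7 lists with 107 genes, of which 105 were tested at each ICM time. Of these, 53 were called lower and 3 higher at 3 days, 52 and 6 at 6 days, and 17 and 4 of 104 in MetaICM. Over all genes tested, 13.2% were called lower and 8.85% higher at 3 days, 17.2% and 13.3% at 6 days, and 8.99% and 7.41% in MetaICM, and the counts of each list below are to be read against these shares. The median log2FC over all lists was -0.65, -0.55 and -0.22, closer to 0 than that of the 10 genes. At the ICM times the list with the median closest to that of the 10 genes was that of other FOXM1 target genes, with 15 of 15 called lower at 3 days (median -3.33), 14 at 6 days (median -3.89) and 4 in MetaICM (median -0.49). In it, CENPF, a kinetochore protein, fell from 524 and 512 CPM in control to 24.8 and 27.8 at 3 days and 14.4 and 16.0 at 6 days (log2FC -4.30 and -5.09). The kinesin of cytokinesis KIF20A (-4.89 and -4.75) and the spindle protein DLGAP5 (-4.26 and -4.40) fell likewise.

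Spindle checkpoint and sister separation genes were called lower in 9 of 12 cases at both times (median -2.41 and -2.74) and in 6 in MetaICM (median -0.53). KNL1, the kinetochore scaffold that carries BUB1, fell at both times (log2FC -4.27 and -4.82), as did BUB1B (-3.99 and -4.55) and the checkpoint kinase TTK (-3.55 and -4.06). All 3 were also called lower in MetaICM (-0.95, -0.84 and -0.81). Of the anaphase-promoting complex and its regulators, 3 of 19 were called lower at each time (median -0.05 and -0.06), a share near the 13.2% and 17.2% of all genes, and 0 in MetaICM by edgeR's quasi-likelihood test, against 8.99%. UBE2C, the complex's E2 enzyme, fell (log2FC -4.11 and -4.32), and so did its inhibitor FBXO5 (-2.23 and -3.10). The subunits CDC26 (1.01, SE 0.22) and ANAPC13 (0.68, SE 0.17) rose at 6 days. They were the 2 of 19 called higher, where 13.3% of all genes were.

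Of 15 Aurora and polo-like kinase partners and paralogs, 9 were called lower and 1 higher at each time (median -1.67 and -1.36), and 2 of 14 lower in MetaICM (median -0.28). CDCA8 and BIRC5, partners of Aurora B in the passenger complex, fell at 3 days (log2FC -4.02 and -3.72) and at 6 days (-4.32 and -4.13). NEK2, a centrosomal kinase, fell at both times (-4.03 and -4.51). AURKC, the Aurora paralog known from germ cells, was the gene called higher, with 8 and 6 counts in control, 29 and 22 at 3 days and 31 and 24 at 6 days (log2FC 1.51, SE 0.45, and 1.58, SE 0.43). With DESeq2 both calls of AURKC were lost (adjusted p 0.149 and 0.0853), against 0.0257 and 0.0134 by edgeR's quasi-likelihood test and 0.0197 and 0.0107 with library totals.

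Of 18 CDK1 partners and regulators, 8 were called lower at both times (median -0.37 and -0.52) and 2 in MetaICM (median -0.19). PKMYT1, a kinase that inhibits CDK1, fell at 3 and 6 days (log2FC -2.97 and -3.86). The phosphatases that activate it also fell, CDC25C (-3.69 and -3.56) more than CDC25B (-1.43 and -1.77). Genes of an inhibitor and of activators of CDK1 were thus both lower. Of 12 other cyclins tested, 3 were called lower and 2 higher at both times (median -0.10 and -0.09), and 1 lower and 4 higher in MetaICM (median -0.10). The 1 of 12 lower in MetaICM is near the 8.99% of all genes, and 7.41% of all genes were called higher there. CCNF fell to 16.6%, 13.7% and 65.5% of its control mean at 3 days, 6 days and in MetaICM, and the S phase cyclin CCNE2 fell at the ICM times (log2FC -1.80 and -1.35). CCND3, a G1 cyclin, rose in all 3 comparisons with control (log2FC 0.94, 1.51 and 0.87), as did the p53 target CCNG1 (0.70, 0.76 and 0.83). CCND1 (1.37) and CCND2 (1.71), chosen after their values were seen, were the other cyclins called higher in MetaICM. CCND2 was the remaining cyclin called lower at both ICM times (-1.51 and -0.77), and CCND1 was not called at either (-0.17 and 0.54). The germ-line paralogs CCNA1, with at most 1 count in a library, and CCNB3, with 3 to 12, were not tested.

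Of 14 genes of the DREAM and MuvB complexes, which repress or activate the late cell cycle genes, 6 were called lower at 3 days (median -0.40), 6 lower and 1 higher at 6 days (median -0.37) and 2 lower in MetaICM (median -0.25), where 8.99% of all genes were. MYBL2, the activating partner of MuvB, fell at both times (log2FC -3.09 and -3.98), as did MYBL1 (-2.29 and -2.84) and the pocket protein RBL1 (-1.98 and -2.21). LIN37, a MuvB subunit, rose at 6 days (0.71, SE 0.20), as the 1 of 14 called higher, where 13.3% of all genes were.

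**Figure D4:**
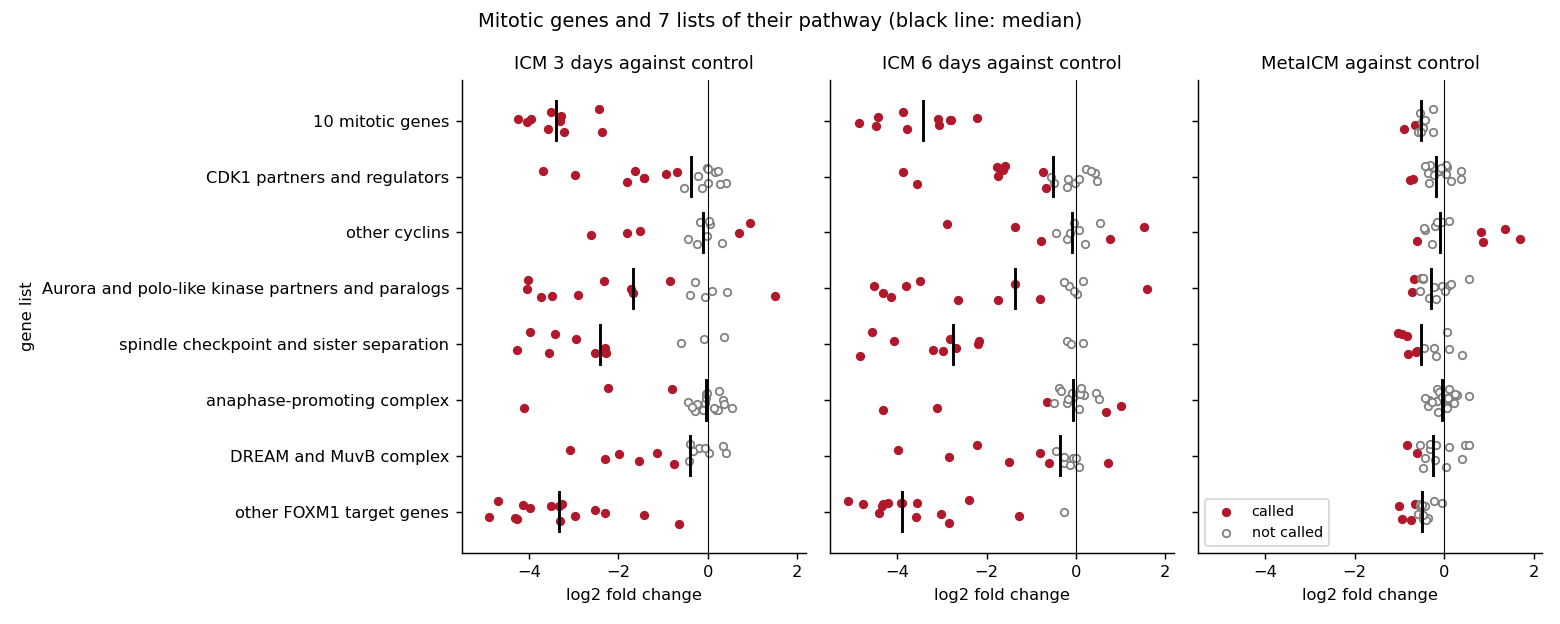
The log2 fold change against control of the 10 mitotic genes and of the 7 lists of their pathway, in 3 panels for 3 days of ICM, 6 days of ICM and MetaICM; each point is a gene, filled where it was called, and black lines are medians. The medians of other FOXM1 target genes lie near those of the 10 genes at both ICM times (-3.33 and -3.89 against -3.40 and -3.43), with single targets up to -0.65 and -0.26, and the anaphase-promoting complex is centred near 0 (-0.05 and -0.06).

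The genes with profiles most like the 10 were sought over the means of the 4 conditions, by the root mean square distance of centred log2 CPM from the median profile of the 10, among 14786 genes. They were FAM83D (0.0617), HMMR (0.0687), PRC1 (0.0857), TPX2 (0.0904) and SHISA3 (0.0917). HMMR, PRC1 and TPX2 belong to the lists above. FAM83D stood at 34.7 and 28.8 CPM in control, 3.26 and 3.03 at 3 days, 3.60 and 2.44 at 6 days and 23.1 and 23.6 in MetaICM. SHISA3 read 10.8 and 11.6 CPM in control, 0.674 to 1.47 in the 4 ICM libraries and 8.22 and 8.55 in MetaICM.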

How the data were processed

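Per the labels and the file headers, the authors aligned paired reads with STAR (version 2.6.0c) to GRCh37 (hg19) and deposited raw counts of pairs on the exons of each gene from featureCounts (version 1.6.3), not normalized, without strand and without multi-mapping or multi-gene pairs. Intronic counts were not analysed here. From these counts, conditions were compared 2 at a time, 4 libraries a fit, with edgeR (version 4.0.16, R 4.3.3): TMM normalization, filterByExpr at a count minimum of 10, the quasi-likelihood test and Benjamini-Hochberg adjustment over all genes tested. A gene was called at an adjusted p under 0.05 and an absolute log2FC over 0.6. Intervals are at 95%. The fits were tested on simulated data with a common dispersion for all genes and large known changes in 200 genes. That test does not bear on the smaller differences between conditions. CPM use TMM-scaled library totals over all 8 libraries, and shares of control compare mean CPM.

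The members and lists were chosen with earlier results of these data known. Named were all members, the 3 called genes with the largest change at 6 days in each list, genes called against their list's direction, the paralogs AURKC, CCNA1 and CCNB3, neighbours with shared exons or starts within 1000 bases, and the 5 genes of most similar profile. Nothing in the labels says that the 2 libraries of a condition came from separate cultures, so p-values measure only the spread between these samples, which may be technical. Library pairs of a condition differed by more than counting noise (mean chi-square per gene 5.83 to 24.8). Alternatives were DESeq2 (version 1.42.0), its size factors, library totals, other filters, a threshold of 0.01, all 8 libraries in 1 fit, a replicate block, thinning to 12095123 pairs and leaving out each library.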

Additional observations from a re-analysis of the deposited data

Results flagged for a closer look

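AURKA was flagged because its level differed between the 2 ICM times. Its log2FC of 6 days against 3 days was 0.50 (SE 0.17, adjusted p 0.0450 by edgeR's quasi-likelihood test), with 7.08 and 7.15 CPM at 3 days and 9.56 and 10.6 CPM at 6 days. Both 6-day libraries were above both 3-day libraries, and the difference stayed under the fold cutoff of 0.6. Over its alternatives the adjusted p ran from 0.0210 to 0.306 and the log2FC from 0.42 to 0.61, and the adjusted p passed the threshold neither with DESeq2 (0.134) nor with library totals (0.0589). No group of the study has 4 libraries, so single libraries were not tested as outliers.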

How the results depend on the processing

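Under 130 alternatives in each comparison, 13 for each of the 10 genes, every call against control at 3 and 6 days and every call of MetaICM against 6 or 3 days kept its direction and its side of the threshold, and no value changed sign in a called gene. With the replicate block, 10 genes were lower at 3 days and 10 at 6 days, as without it, and no call of the 10 genes changed. Deviations of same-numbered libraries correlated between -0.11 and 0.17 over 6 pairs of conditions. Such low values cannot tell whether the samples were paired. Leaving out 1 library, which leaves 1 in a condition that is then assumed to vary like the other, moved the genes called lower at 6 against 3 days from 0 to between 0 and 2, those called lower in MetaICM against control from 2 to between 1 and 5, and those at an adjusted p under 0.05 in MetaICM from 8 to between 1 and 9. At an adjusted p under 0.01 that count was 3. Thinned to 12095123 pairs, 1 gene, AURKA at 0.61, was called higher at 6 against 3 days. The causes were not tested, beyond the fewer samples in the fits. With 19 counted pairs at the lowest after ICM, depth limits AURKB and FOXM1 most.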
